A study of Arabidopsis thaliana with 30 samples.

Results

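The 9 genes described here encode WRKY transcription factors of Arabidopsis thaliana that are known to be induced by pathogens, wounding or other stress: WRKY18, WRKY22, WRKY25, WRKY29, WRKY33, WRKY40, WRKY46, WRKY60 and WRKY75. They were taken by gene identifier from a list drawn up with earlier results of these data known, and are 9 of the 34262 gene identifiers in the deposited count tables. RNA came from leaves of bolting plants of the Col-0 accession, in 30 libraries that make up 10 groups of 3. Groups were hda6, cue1 and their wild type under 12 h of light per day, sal1 and a wild type of its own under 12 h, msh1, cue1 and their wild type under 16 h, and hda6 and a further wild type under 16 h. The gene named HDA6 encodes a histone deacetylase, CUE1 a phosphoenolpyruvate translocator of the plastid envelope, SAL1 a phosphatase that removes PAP, a stress signal, and MSH1 a MutS homologue of plastids and mitochondria. No group was heat treated, and neither the mutant alleles nor the number of lines behind each is given in the sources used here. Replicates are full siblings, so p-values measure the spread among plants of a family, and whether plants were pooled is not stated there either. The labels call the tissue leaf, whereas the design text speaks of aboveground tissue.

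WRKY proteins bind a short DNA element, the W-box, that contains the core TTGAC. Many WRKY genes carry W-boxes in their own promoters, so that members of the family can activate or repress each other. In leaves, receptors for microbial patterns activate cascades of mitogen-activated protein (MAP) kinases, which phosphorylate WRKY proteins, and calcium, ethylene, jasmonate and salicylic acid act on the same genes. Proteins with a VQ motif bind WRKY factors and modify their activity.

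The 3 members of group IIa form homodimers and heterodimers and are known mainly as repressors of basal defence and of abscisic acid responses. They are WRKY18 (AT4G31800, chromosome 4, 15382777 to 15385100, plus strand), WRKY40 (AT1G80840, chromosome 1, 30383561 to 30385499, plus strand) and WRKY60 (AT2G25000, chromosome 2, 10629662 to 10631413, plus strand). Group I is represented by WRKY33 (AT2G38470, chromosome 2, 16108235 to 16110766, plus strand), a MAP kinase substrate that activates synthesis of the phytoalexin camalexin, and by its close relative WRKY25 (AT2G30250, chromosome 2, 12903208 to 12905338, minus strand), which also acts in heat tolerance. WRKY22 (AT4G01250, chromosome 4, 522530 to 524249, minus strand) and WRKY29 (AT4G23550, chromosome 4, 12291632 to 12293367, plus strand), of group IIe, act downstream of the flagellin receptor. WRKY46 (AT2G46400, chromosome 2, 19043411 to 19044955, minus strand), of group III, acts in basal resistance together with WRKY70. WRKY75 (AT5G13080, chromosome 5, 4149738 to 4151201, minus strand), of group IIc, is known from phosphate starvation and promotes leaf senescence. All coordinates are those of TAIR10.1. Exons of other genes on the opposite strand overlap a part of 0.18 of the exonic bases of WRKY29, and the strand setting of the counting is not given in the sources used here. The counts of WRKY29 are therefore uncertain. For the other 8 genes that part is at most 0.0385.

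Sequence upstream of 4 of the genes is shown. WRKY40, WRKY33 and WRKY75 were picked for the largest differences between hda6 and wild type at 12 h. WRKY29, whose counts are uncertain as said above, was picked for its pair of inverted W-boxes and not for its level. Each is the 250 bases before the annotated start in TAIR10.1 (RefSeq), 5′ to 3′ on the strand of the gene, with W-boxes, searched as TTGACC or TTGACT on both strands with no overlap between them, in capitals.
WRKY33 (chr2:16107985-16108234, plus strand): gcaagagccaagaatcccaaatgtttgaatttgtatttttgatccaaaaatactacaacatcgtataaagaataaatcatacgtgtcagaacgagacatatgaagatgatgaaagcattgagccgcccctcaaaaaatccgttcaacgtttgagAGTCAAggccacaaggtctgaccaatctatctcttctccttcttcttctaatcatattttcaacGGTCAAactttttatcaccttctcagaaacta
WRKY29 (chr4:12291382-12291631, plus strand): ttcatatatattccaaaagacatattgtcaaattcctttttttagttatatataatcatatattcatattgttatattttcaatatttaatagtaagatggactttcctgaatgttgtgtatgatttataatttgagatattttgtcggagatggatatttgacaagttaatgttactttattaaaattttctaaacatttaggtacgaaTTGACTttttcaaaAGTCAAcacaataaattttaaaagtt
WRKY75 (chr5:4151202-4151451, minus strand): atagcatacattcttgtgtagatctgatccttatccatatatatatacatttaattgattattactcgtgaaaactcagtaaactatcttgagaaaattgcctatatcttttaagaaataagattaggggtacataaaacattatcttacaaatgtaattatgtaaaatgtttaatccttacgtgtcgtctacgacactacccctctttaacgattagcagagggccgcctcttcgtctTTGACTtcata
WRKY40 (chr1:30383311-30383560, plus strand): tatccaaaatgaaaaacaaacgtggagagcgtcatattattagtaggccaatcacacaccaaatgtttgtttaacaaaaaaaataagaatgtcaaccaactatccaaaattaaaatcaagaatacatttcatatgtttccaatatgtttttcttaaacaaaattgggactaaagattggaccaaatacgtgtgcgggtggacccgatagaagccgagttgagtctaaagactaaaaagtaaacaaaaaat

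WRKY33 has its boxes at 96 to 91 and at 32 to 27 bases before the start, both on the opposite strand. In WRKY29 a box on the gene's strand at 40 to 35 bases is followed by an inverted copy at 26 to 21 bases. WRKY75 has a box on its own strand at 11 to 6 bases. WRKY25 has a box at 8 to 3 bases, in a window that also overlaps the neighbouring gene AT2G30260. The windows of WRKY18, WRKY22, WRKY40, WRKY46 and WRKY60 hold neither word. Thus 4 of the 9 members (44.4%) hold a box, against 28.4% of the windows of 27443 protein-coding genes and 33.9% of those of 62 other WRKY genes. In windows of 1000 bases all 9 members hold at least 1 box, as do 67.3% of protein-coding genes and 75.8% of the other WRKY genes, and WRKY33 has 4, which 4.69% of protein-coding genes and 9.68% of the other WRKY genes reach or exceed. These matches describe the sequence and say nothing of binding.

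Library size was 32306939 to 33747006 gene counts in the 12 h set of hda6 and cue1, and 14417942 to 22334743 in the other 3 sets. Entries assigned to no gene made up 2.85% to 6.03% of the entries in that 12 h set and 48.2% to 49.8% elsewhere. Levels are CPM, counts scaled to a common total over all 30 libraries, given as mean ± SD with n = 3. CUE1 stood at 11.3 ± 2.75 CPM in cue1 and 131 ± 2.53 CPM in wild type at 12 h, and at 15.7 ± 0.535 CPM in cue1 and 212 ± 8.21 CPM in wild type at 16 h. HDA6 stood at 25.0 ± 0.714 CPM in hda6 and 28.2 ± 0.596 CPM in wild type at 12 h, and at 16.2 ± 1.06 CPM in hda6 and 25.5 ± 2.9 CPM in wild type at 16 h. SAL1 was at 207 ± 36.5 CPM in the libraries labelled sal1 and 67.0 ± 7.95 CPM in their wild type, and MSH1 at 26.7 ± 2.02 CPM in those labelled msh1 and 10.1 ± 0.331 CPM in wild type. The transcripts of SAL1 and MSH1 were thus not lower in the libraries named for them, and that of HDA6 was close to wild type in hda6 at 12 h. Directions for sal1, msh1 and hda6 at 12 h therefore rest on the labels alone. The 3 leaf markers RBCS1A, LHCB1.3 and RCA summed to 9275 to 56480 CPM over all libraries, the 4 flower markers AP3, PI, AG and SEP3 to 0.576 to 7.79 CPM, and the 3 root markers PYK10, IRT1 and NRT2.1 to 5.47 to 54.4 CPM.

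Per kilobase of exon, WRKY33, WRKY25 and WRKY18 were the most abundant members in every wild type but that of hda6 at 16 h, and WRKY22, WRKY29 and WRKY75 the least. In the 12 h wild type of hda6 and cue1, WRKY33 stood at 16.2 ± 4.07, WRKY18 at 14.5 ± 2.67 and WRKY25 at 13.6 ± 2.07 CPM per kilobase, levels whose ranges of 1 SD overlap. WRKY60 followed at 7.82 ± 2.63 and WRKY46 at 7.47 ± 2.63 CPM per kilobase, again within their spread, then WRKY40 at 4.57 ± 0.976, WRKY75 at 2.55 ± 1.32, WRKY22 at 1.68 ± 0.415 and WRKY29 at 0.885 ± 0.0498 CPM per kilobase. In the 16 h wild type of hda6, WRKY25 (12.9 ± 1.63 CPM per kilobase) and WRKY33 (12.2 ± 2.52) led, and WRKY18 was at 5.13 ± 0.879, beside WRKY46 at 5.19 ± 1.51. In hda6 at 12 h the order kept WRKY33 first (45.3 ± 8.21 CPM per kilobase), and WRKY75 (13.4 ± 4.03) lay beside WRKY40 (15.4 ± 1.02). In sal1, WRKY25, WRKY33, WRKY75, WRKY18 and WRKY40 all lay between 18.3 and 20.8 CPM per kilobase, closer together than their SDs. Over the 30 libraries WRKY33 ranged from 17.2 to 107.6 CPM and WRKY18 from 7.84 to 66.9 CPM, while WRKY22 never exceeded 3.69 CPM nor WRKY29 3.47 CPM. WRKY75 had the largest ratio between its highest and lowest group means, 15.9 CPM in sal1 and 0.116 CPM in hda6 at 16 h, and ranged from 0 to 655 counts in a library.

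**Figure D1:**
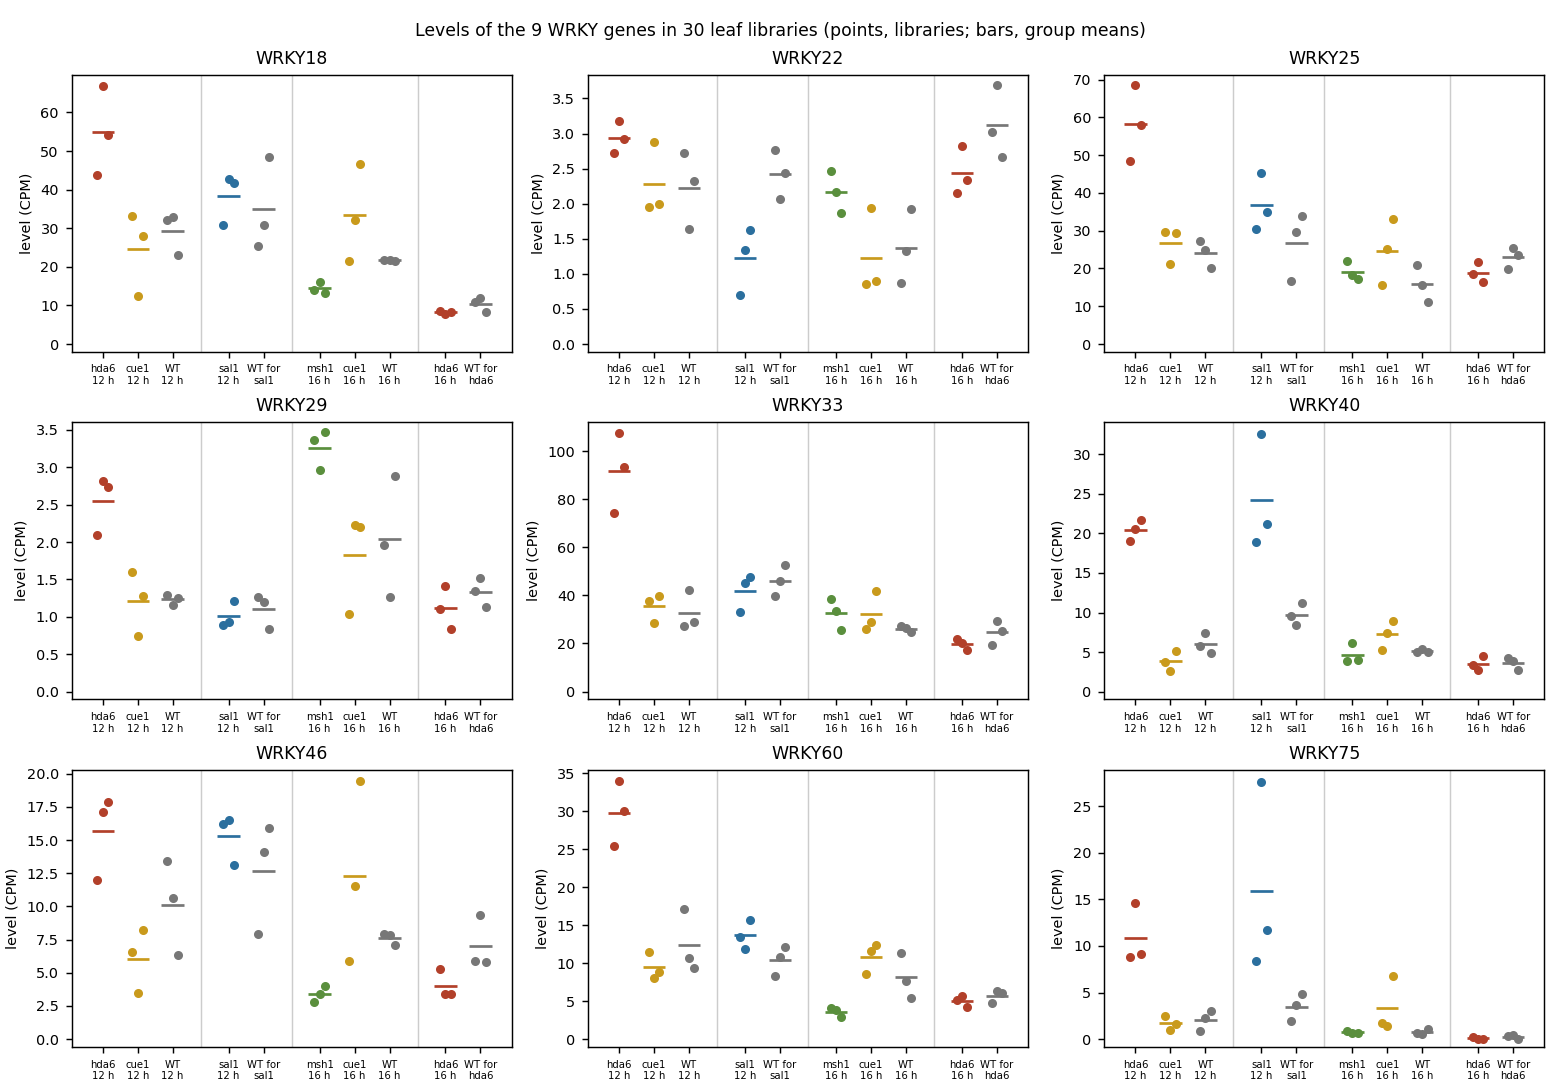
Level of each of the 9 WRKY genes (y axis, CPM) in each of the 30 libraries (points) with the group means (bars), mutants left of the wild type of their set and vertical lines between sets. The hda6 libraries at 12 h lie above their wild type for the 7 genes called higher there (WRKY18, WRKY25, WRKY29, WRKY33, WRKY40, WRKY60 and WRKY75). Of all genes tested 22.4% were called higher in that comparison. In sal1, WRKY40 and WRKY75 lie above and WRKY22 below wild type, where 25% of all genes tested were called higher. At 16 h, WRKY18, WRKY46 and WRKY60 lie below and WRKY29 above in msh1, WRKY75 above in cue1 and WRKY46 below in hda6. The share of all genes whose groups lie apart was not counted.

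In hda6 at 12 h, 7 of the 9 genes were higher than in wild type and none was lower, by edgeR's quasi-likelihood test with Benjamini-Hochberg adjustment over all 20649 genes tested and a threshold of 0.05. Of all genes tested, 22.4% were called higher and 19.6% lower in that comparison. The median log2 fold change was 1.26 over the members and -0.0047 over all genes. Transcript per cell and the share of cells that hold it cannot be told apart in these bulk samples.

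Among the group IIa repressors, WRKY40 had 19.0, 20.6 and 21.7 CPM in hda6 and 5.74, 7.47 and 4.94 CPM in wild type at 12 h. The lowest hda6 library thus lay far above the highest wild type, and the fitted difference was 3.38-fold (log2 1.76, SE 0.22, edgeR adjusted p = 0.000562). WRKY60 had 25.4, 33.9 and 30.01 CPM in hda6 and 17.1, 10.7 and 9.29 CPM in wild type, groups that did not overlap (log2 1.26, SE 0.23, edgeR adjusted p = 0.00263). WRKY18 had 43.7, 66.9 and 54.05 CPM in hda6 and 32.1, 32.8 and 23.1 CPM in wild type, also without overlap, with the smallest called difference of the 7 (log2 0.90, SE 0.31, edgeR adjusted p = 0.0439). This call for WRKY18 was lost without wild type replicate 1, 2 or 3 or hda6 replicate 2 or 3 (edgeR adjusted p 0.0652 to 0.149), whereas the other 6 called genes kept their calls without each of the 6 libraries.

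Both group I genes rose. WRKY33, the camalexin regulator, had 74.5, 107.6 and 93.6 CPM in hda6 and 27.2, 42.3 and 29.1 CPM in wild type at 12 h, so every hda6 library exceeded every wild type (log2 1.48, SE 0.20, edgeR adjusted p = 0.0007). WRKY25 had 48.5, 68.5 and 57.9 CPM in hda6 and 27.4, 24.8 and 20.2 CPM in wild type, again without overlap (2.41-fold, log2 1.27, SE 0.17, edgeR adjusted p = 0.000721). The pair of flagellin-responsive genes differed in their calls. WRKY29 had 2.1, 2.81 and 2.74 CPM in hda6 and 1.29, 1.15 and 1.26 CPM in wild type (2.06-fold, log2 1.05, SE 0.27, edgeR adjusted p = 0.0132), whereas WRKY22, at 2.72, 3.18 and 2.93 CPM in hda6 and 2.72, 1.64 and 2.33 CPM in wild type, overlapped and did not pass (log2 0.40, SE 0.23, edgeR adjusted p = 0.191). Whether these fold changes differ from each other was not tested.

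WRKY75, the senescence and phosphate-starvation factor, had 8.77, 14.6 and 9.12 CPM in hda6 and 0.927, 2.24 and 3.04 CPM in wild type at 12 h. It had the largest fold of the members (5.23-fold, log2 2.39, SE 0.42, edgeR adjusted p = 0.00248). WRKY46 had 12.0, 17.2 and 17.9 CPM in hda6 and 13.4, 10.6 and 6.32 CPM in wild type, and did not pass (log2 0.63, SE 0.33, edgeR adjusted p = 0.15). The summed leaf markers overlapped, at 25990 to 30300 CPM in hda6 and 25180 to 35230 CPM in wild type, with 0 of 3 called. The summed flower markers were at 1.98 to 2.81 CPM in hda6 and 1.44 to 1.68 CPM in wild type, with 1 of the 3 tested called higher and none of the 4 at 0. The summed root markers were at 13.9 to 26.0 CPM in hda6 and 5.74 to 54.4 CPM in wild type, with 1 of 3 called higher and IRT1 at 0 in wild type. Their part in the result was not tested.

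**Figure D2:**
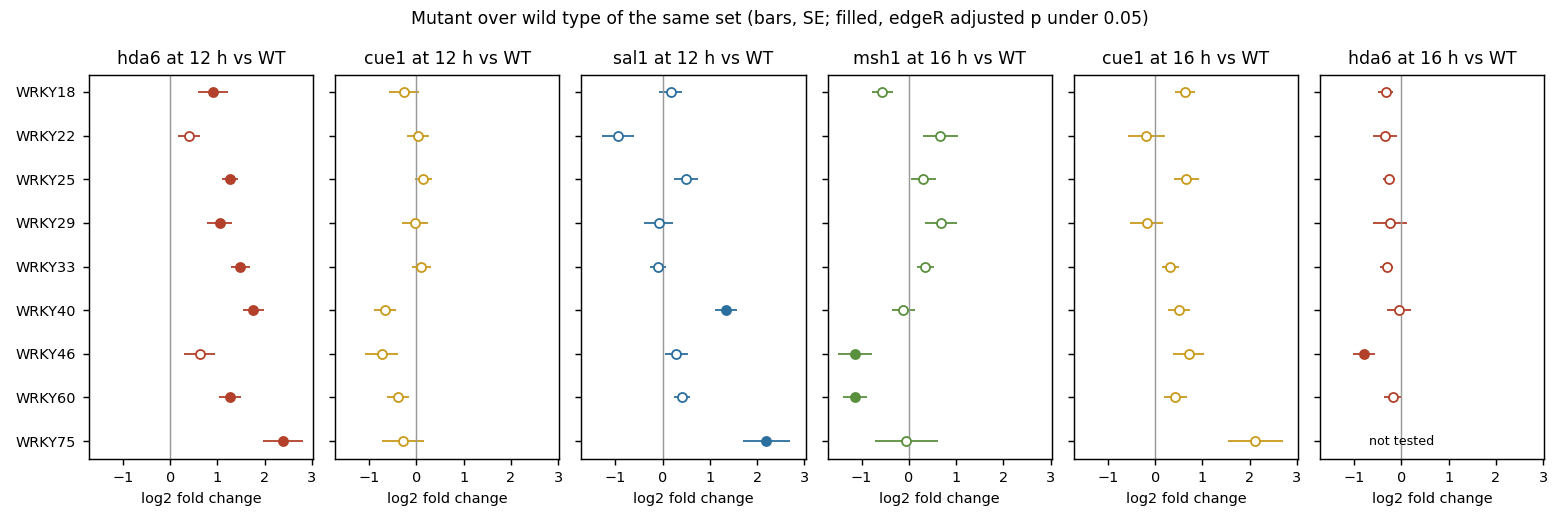
Log2 fold change of each WRKY gene (x axis) in each mutant over the wild type of its set, with bars for 1 SE and filled points where the edgeR adjusted p is under 0.05. In hda6 at 12 h all 9 points lie right of 0 and 7 are filled, whereas in cue1 none is filled at either day length.

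Genes that act with these factors also changed in hda6 at 12 h, where 22.4% of all genes tested were called higher and 19.6% lower. All 6 of the VQ-protein genes were higher, with a median log2 of 0.96 against -0.0047 over all genes. JAV1, a VQ protein that restrains jasmonate responses, was at 24.01 ± 3.3 CPM in hda6 and 7.8 ± 0.574 CPM in wild type (log2 1.62, SE 0.16, edgeR adjusted p = 0.000174). SIB2, which binds WRKY33, was at 48.2 ± 4 CPM in hda6 and 24.5 ± 3.4 CPM in wild type (log2 0.98, SE 0.11), but all its exonic bases are overlapped on the other strand, so its counts are uncertain. Of 15 genes for pattern receptors and MAP kinases 7 were higher and none lower. They were led by MKK9, a kinase upstream of MPK3 and MPK6, at 95.4 ± 9.45 CPM in hda6 and 31.4 ± 1.81 CPM in wild type (log2 1.60, SE 0.09, edgeR adjusted p = 1.025e-05), followed by BIK1, a receptor-associated kinase (log2 0.83, SE 0.11).

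Of 9 genes of camalexin and ethylene synthesis, 6 were higher in hda6 at 12 h and none lower (median log2 1.32). This and the following counts stand beside 22.4% of all genes called higher and 19.6% called lower. GSTF6, a glutathione transferase, stood at 491.9 ± 84.1 CPM in hda6 and 142 ± 28.9 CPM in wild type (log2 1.79, SE 0.25), and ACS6, an ethylene-forming ACC synthase, at 20.4 ± 4.01 CPM in hda6 and 11.5 ± 1.1 CPM in wild type (log2 0.82, SE 0.14). All 15 early touch- and wound-responsive genes were higher (median log2 1.73), with the smallest adjusted p for SZF1, a zinc finger protein (log2 1.37, SE 0.12, edgeR adjusted p = 0.000118), and CML38, a calmodulin-like protein, at 7.27 ± 0.32 CPM in hda6 and 1.71 ± 0.315 CPM in wild type. Of 14 immune output genes tested 6 were higher and none lower, among them CYP81F2 of indole glucosinolate synthesis (log2 1.79, SE 0.27) and CBP60G, an activator of salicylic acid synthesis (log2 1.72, SE 0.31). Of 7 senescence-related genes 6 were higher and 1 lower. That list holds genes by their link to senescence, not by the direction of their change in it. ORE1, a NAC factor that promotes senescence, stood at 36.3 ± 12.4 CPM in hda6 and 5.5 ± 0.784 CPM in wild type (log2 2.72, SE 0.28), and SAG13 at 120.8 ± 41.4 CPM in hda6 and 27.5 ± 12.4 CPM in wild type (log2 2.14, SE 0.36).

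Of the 62 other WRKY genes, 48 were tested in hda6 at 12 h, of which 26 were higher and 1 lower, with a median log2 of 0.70. The smallest adjusted p-values were those of WRKY57, at 25.9 ± 1.13 CPM in hda6 and 10.9 ± 0.329 CPM in wild type (log2 1.25, SE 0.08), WRKY45, at 25.5 ± 3.67 CPM in hda6 and 4.01 ± 0.626 CPM in wild type (log2 2.67, SE 0.20), and WRKY26, at 45.8 ± 7.42 CPM in hda6 and 12.6 ± 2.69 CPM in wild type (log2 1.86, SE 0.18). WRKY45 is known with WRKY75 from phosphate transport, and WRKY26 with WRKY25 and WRKY33 from heat tolerance. The share called higher was 54.2% in the other WRKY genes, 77.8% in the 9 members and 22.4% in all genes tested.

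At 16 h, 1 of the 8 genes tested was lower in hda6 and none was higher, where 4.49% of all 20495 genes tested were called higher and 3.52% lower. All 8 log2 fold changes were negative (median -0.29, against -0.0118 over all genes). WRKY46 had 5.26, 3.39 and 3.4 CPM in hda6 and 5.9, 9.39 and 5.8 CPM in wild type at 16 h (1.74-fold lower in hda6, log2 -0.80, SE 0.24, edgeR adjusted p = 0.0493). Groups did not overlap, but the call was lost without hda6 replicate 2 (edgeR adjusted p = 0.126) or 3 (0.195) and without wild type replicate 2 (0.255) or 3 (0.0509). It was also lost with size factors of DESeq2 type (0.0514) and with DESeq2 itself (0.0565). With all 30 libraries in a single edgeR model the adjusted p was 0.26.

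The genes with large differences at 12 h overlapped between groups at 16 h. WRKY40 had 3.32, 2.69 and 4.46 CPM in hda6 and 4.22, 3.86 and 2.78 CPM in wild type (log2 -0.06, SE 0.25, edgeR adjusted p = 0.927), groups that overlapped. WRKY33 had 21.9, 20.0 and 17.2 CPM in hda6 and 19.3, 29.5 and 25.3 CPM in wild type (log2 -0.31, SE 0.14, edgeR adjusted p = 0.198), and passed only without wild type replicate 1 (0.0268). WRKY75 had 4, 1 and 0 counts in hda6 and 6, 8 and 0 counts in wild type, too few to pass the filter on low counts, so no fold is given. The remaining 5 genes (WRKY18, WRKY22, WRKY25, WRKY29 and WRKY60) had log2 fold changes between -0.35 and -0.18, none passing.

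Among the other lists at 16 h, most of the calls in hda6 were of lower levels. Over all genes tested, 4.49% were called higher and 3.52% lower. Immune outputs had 6 of 11 tested lower and 1 higher (median log2 -0.58), with PR2 at 66.4 ± 1.66 CPM in hda6 and 174.5 ± 58.6 CPM in wild type (log2 -1.39, SE 0.16, edgeR adjusted p = 2.144e-05) and PR1, a marker of salicylic acid signalling, at 37.2 ± 16.2 CPM in hda6 and 117.9 ± 51.05 CPM in wild type (log2 -1.65, SE 0.28). Of the 6 VQ genes 3 were lower and none higher, with SIB1 at a log2 of -0.90 (SE 0.16) and MVQ1, a substrate of MAP kinases, at -0.34 (SE 0.09). The camalexin and ethylene list had 3 of 8 tested lower and none higher, CYP79B2 at a log2 of -0.65 (SE 0.09) and CYP79B3 at -0.55 (SE 0.10), paralogous enzymes that turn tryptophan into the camalexin precursor. Of 15 receptor and MAP kinase genes 4 were lower and none higher, led by MPK3 (log2 -0.43, SE 0.11), a part of 0.103 of which is overlapped on the other strand, and the chitin receptor kinase gene CERK1 (log2 -0.38, SE 0.11).

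The early touch and wound list had 2 of 15 genes lower in hda6 at 16 h, TCH3, a calmodulin-like protein (log2 -0.47, SE 0.09, with a part of 0.202 overlapped on the other strand), and BAP1, an inhibitor of cell death, at 0.569 ± 0.168 CPM in hda6 and 1.56 ± 0.281 CPM in wild type. None of the 7 senescence-related genes was called. Of 40 other WRKY genes tested 1 (2.5%) was lower and 1 (2.5%) higher, beside 3.52% and 4.49% of all genes. WRKY70, a partner of WRKY46, was at 36.4 ± 2.27 CPM in hda6 and 73.9 ± 11.3 CPM in wild type (log2 -1.01, SE 0.11, edgeR adjusted p = 8.169e-06), and WRKY45 at 4.82 ± 0.474 CPM in hda6 and 1.44 ± 0.533 CPM in wild type (log2 1.76, SE 0.28). The summed leaf markers were at 51670 to 56480 CPM in hda6 and 42460 to 52890 CPM in wild type, with 0 of 3 called, and the summed flower markers overlapped. The summed root markers did not overlap, at 10.4 to 17.6 CPM in hda6 and 18.7 to 20.9 CPM in wild type, with 0 of the 1 tested called. The part of these markers in the values was not tested.

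The difference between the hda6 effects at 16 h and 12 h was tested as an interaction over the 4 groups. It was negative for all 9 genes, with 7 called lower and 2 not called, where 12.9% of all genes tested were called lower, and a median of -1.44 against 0.0136 over all genes. The sizes on the log2 scale were -1.81 (SE 0.29, edgeR adjusted p = 0.0013) for WRKY40, -1.80 (SE 0.28, adjusted p = 0.00109) for WRKY33 and -1.54 (SE 0.22, adjusted p = 0.000714) for WRKY25. WRKY60 had -1.44 (SE 0.31), WRKY46 -1.43 (SE 0.41), WRKY29 -1.28 (SE 0.36) and WRKY18 -1.23 (SE 0.26), all past the threshold by edgeR. WRKY46 did not pass without hda6 replicate 2 or 3 or wild type replicate 2 of the 16 h set (edgeR adjusted p 0.0587 to 0.0656), and WRKY29 without hda6 replicate 3 (0.0511) or wild type replicate 2 (0.0516) of that set. WRKY75 (-3.40, SE 1.26, edgeR adjusted p = 0.0632) and WRKY22 (-0.75, SE 0.32, edgeR adjusted p = 0.0967) did not pass. WRKY75 was called with DESeq2 (log2 -3.44, SE 1.000, DESeq2 adjusted p = 0.00402) and, by edgeR, without the 12 h wild type replicate 3 (0.0487) or the 16 h wild type replicate 3 (0.0334). The sets also differ in the share of entries without a gene, 2.85% to 6.03% at 12 h and 49.4% to 49.8% at 16 h, and in the level of HDA6 transcript given above. Day length and set cannot be told apart.

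**Figure D3:**
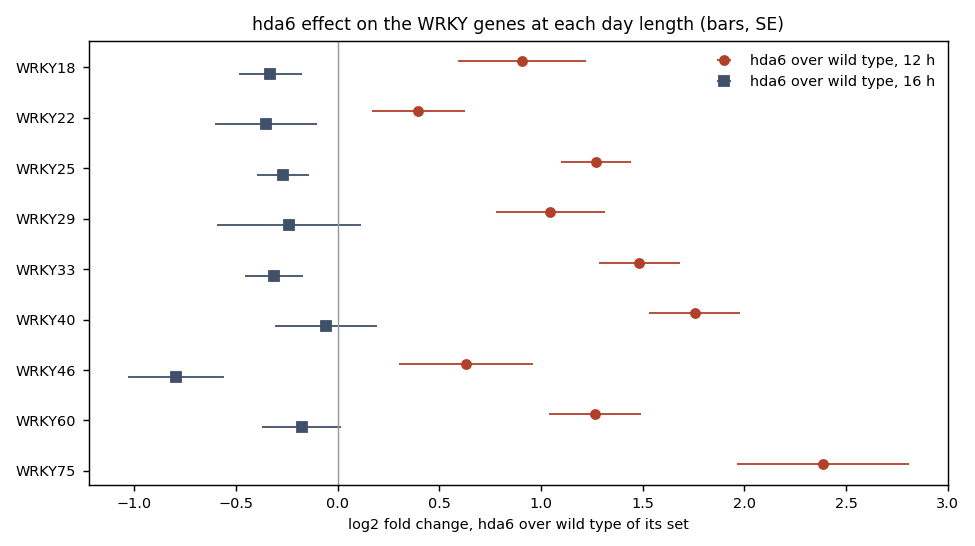
Log2 fold change of hda6 over the wild type of its set (x axis, bars for 1 SE) for each WRKY gene at 12 h (circles) and 16 h (squares). All 12 h points lie between 0.40 and 2.39 and all 16 h points between -0.80 and -0.06, with WRKY75 not tested at 16 h.

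In sal1 at 12 h, 2 of the 9 genes (22.2%) were higher, near the 25% of all 21845 genes tested that were called higher. None was lower, where 21.3% of all genes were called lower. The median log2 fold change was 0.29 over the members and 0.01 over all genes. WRKY40 had 18.9, 32.6 and 21.2 CPM in libraries labelled sal1 and 9.57, 8.44 and 11.2 CPM in their wild type (2.53-fold, log2 1.34, SE 0.22, edgeR adjusted p = 0.00223). WRKY75 had 8.42, 27.5 and 11.7 CPM in sal1 and 1.9, 3.7 and 4.84 CPM in wild type (4.58-fold, log2 2.20, SE 0.50, edgeR adjusted p = 0.00847). Neither gene overlapped between groups, and sal1 replicate 2 was the highest for both. Without sal1 replicate 2 the log2 of WRKY75 was 1.54 and its edgeR adjusted p 0.0337.

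WRKY22 had 0.702, 1.35 and 1.62 CPM in sal1 and 2.77, 2.07 and 2.44 CPM in wild type, without overlap, and narrowly missed the threshold (log2 -0.95, SE 0.34, edgeR adjusted p = 0.0518). It was called without sal1 replicate 3 (0.0428), with DESeq2 (0.042) and with all 30 libraries in a single edgeR model (0.00982). WRKY33, with 33.3, 45.02 and 47.8 CPM in sal1 and 39.6, 45.8 and 52.6 CPM in wild type, overlapped (log2 -0.10, SE 0.16, edgeR adjusted p = 0.64). WRKY25 (log2 0.49), WRKY60 (0.42), WRKY46 (0.29), WRKY18 (0.17) and WRKY29 (-0.08) did not pass either. The summed leaf markers were at 9275 to 12860 CPM in sal1 and 14950 to 22280 CPM in wild type, with 2 of 3 called lower. The summed flower markers were at 1.52 to 2.44 CPM in sal1 and 0.576 to 0.871 CPM in wild type, with 1 of the 2 tested called higher and none of the 4 at 0. Their part in the result was not tested.

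The lists of genes around the WRKY factors are read in sal1 against the 25% of all genes called higher and 21.3% called lower. Of the camalexin and ethylene list 6 of 9 were higher and none lower (median log2 1.80). CYP79B2 stood at 487.9 ± 189.6 CPM in sal1 and 88.1 ± 7.89 CPM in wild type (log2 2.50, SE 0.26), and CYP79B3 at 547.4 ± 249.9 CPM in sal1 and 71.4 ± 13.7 CPM in wild type (log2 2.97, SE 0.32). Of the 6 VQ genes 1 was higher and 3 were lower, led by SIB2 at 14.8 ± 2.79 CPM in sal1 and 34.7 ± 4.79 CPM in wild type (log2 -1.19, SE 0.16, edgeR adjusted p = 0.000779), whose counts are uncertain as said above, and by SIB1, which binds WRKY33 (log2 -0.43, SE 0.07). Of 15 receptor and MAP kinase genes 4 (26.7%) were higher and 3 (20.0%) lower, shares near those of all genes: MPK11 was at 17.6 ± 4.93 CPM in sal1 and 8.27 ± 1.03 CPM in wild type, and MPK3 at 67.7 ± 6.9 CPM in sal1 and 137.7 ± 13.4 CPM in wild type (log2 -0.99, SE 0.11, edgeR adjusted p = 0.00042), with a part of 0.103 of its exonic bases overlapped on the other strand. No immune output gene was higher and 4 of 12 tested were lower, led by CYP81F2 (log2 -1.70, SE 0.24) and EDS1 (log2 -0.76, SE 0.12). Of the early touch and wound genes 4 of 15 were higher and 2 lower, CML38 at 15.4 ± 9.17 CPM in sal1 and 0.963 ± 0.3 CPM in wild type, and ERF104 at 4.96 ± 0.511 CPM in sal1 and 10.2 ± 1.62 CPM in wild type. Of the senescence list 4 of 7 were higher, including the chlorophyll-degrading PPH (log2 1.22, SE 0.19) and ORE1 (log2 2.39, SE 0.48).

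Of 51 other WRKY genes tested in sal1, 14 (27.5%) were higher and 9 (17.6%) lower, again near the shares of all genes. WRKY34, known from pollen, stood at 6.71 ± 0.474 CPM in sal1 and 0.0332 ± 0.0298 CPM in wild type (log2 7.45, SE 0.39, edgeR adjusted p = 1.095e-05). WRKY54 was at 29.6 ± 0.0247 CPM in sal1 and 87.7 ± 1.8 CPM in wild type (log2 -1.54, SE 0.07, edgeR adjusted p = 6.38e-06). WRKY69, of which a part of 0.211 is overlapped on the other strand, had a log2 of 1.12 (SE 0.15).

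In msh1 at 16 h, 2 of the 9 genes (22.2%) were lower, beside 16% of all 20785 genes tested that were called lower. None was higher, where 17.4% of all genes were called higher. The median log2 was -0.06 over the members and 0.00887 over all genes. WRKY60 had 4.07, 3.85 and 2.88 CPM in libraries labelled msh1 and 11.3, 7.68 and 5.47 CPM in wild type (2.21-fold lower in msh1, log2 -1.14, SE 0.26, edgeR adjusted p = 0.0059). WRKY46 had 2.76, 3.4 and 4 CPM in msh1 and 7.9, 7.87 and 7.11 CPM in wild type (2.21-fold lower in msh1, log2 -1.14, SE 0.36, edgeR adjusted p = 0.0305). Neither gene overlapped between groups. WRKY46 did not pass without msh1 replicate 1 (edgeR adjusted p = 0.104) or 2 (0.078) and without wild type replicate 1 (0.0748) or 2 (0.0714), while WRKY60 kept its call without each of the 6 libraries.

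Another group IIa gene, WRKY18, had 14.02, 16.02 and 13.4 CPM in msh1 and 21.9, 21.7 and 21.6 CPM in wild type, without overlap, and did not pass (log2 -0.56, SE 0.22, edgeR adjusted p = 0.0739). It was called with DESeq2 (0.0412) and with only these 2 groups in the fit (0.00149), where the wild type SD was 0.125 CPM. WRKY29 had 3.37, 2.96 and 3.47 CPM in msh1 and 1.96, 1.27 and 2.88 CPM in wild type, also without overlap (log2 0.68, SE 0.33, edgeR adjusted p = 0.142), and was called without wild type replicate 3 (0.0486). WRKY22 (log2 0.67), WRKY33 (0.35), WRKY25 (0.30), WRKY40 (-0.11) and WRKY75 (-0.06) overlapped and did not pass. The summed flower markers were at 6.35 to 7.79 CPM in msh1 and 0.927 to 2.35 CPM in wild type, with 2 of 4 called higher and none at 0. The summed root markers were at 30.4 to 35.7 CPM in msh1 and 21.8 to 44.9 CPM in wild type, with 1 of the 2 tested called higher. The summed leaf markers were at 32460 to 36790 CPM in msh1 and 35330 to 41800 CPM in wild type, with 1 of 3 called lower. Their part in the result was not tested.

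In msh1 the camalexin and ethylene list had 5 of 9 genes lower and none higher (median log2 -0.94), with CYP79B3 at 54.1 ± 8.89 CPM in msh1 and 174.5 ± 10.5 CPM in wild type (log2 -1.66, SE 0.12) and CYP79B2 at 63.3 ± 8.31 CPM in msh1 and 175.8 ± 5.33 CPM in wild type (log2 -1.45, SE 0.11). Immune outputs had 4 of 12 tested lower and 1 higher, PR2, a glucanase, at 70.3 ± 25.9 CPM in msh1 and 402 ± 104 CPM in wild type (log2 -2.49, SE 0.38) and the immune regulator PAD4 at a log2 of -0.85 (SE 0.22). The senescence list had 3 of 7 lower, the catalase gene CAT2, which protects leaves from photorespiratory peroxide, at 139.5 ± 27.8 CPM in msh1 and 731 ± 62.2 CPM in wild type and PPH at a log2 of -1.07 (SE 0.10). Of the VQ genes 2 of 6 were higher, SIB1 (log2 1.06, SE 0.22) and MKS1 (log2 0.72, SE 0.08), with a part of 0.293 of MKS1 overlapped on the other strand. Of the early touch and wound genes 5 of 15 were higher and 1 lower, ERF104 (log2 1.24, SE 0.24) and ERF6 (log2 1.26, SE 0.25) with the smallest adjusted p-values. None of the 15 receptor and MAP kinase genes was called. Other WRKY genes had 5 higher (10.6%) and 6 lower (12.8%) of 47 tested, below the 17.4% and 16% over all genes. WRKY7 at a log2 of 1.23 (SE 0.13), WRKY28 at -1.999 (SE 0.33) and WRKY62 at -2.51 (SE 0.47) had the smallest adjusted p-values.

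In cue1 none of the 9 genes was called at either day length. At 12 h, where 1.3% of all genes tested were called higher and 0.542% lower, 1 member had an unadjusted p under 0.05 and DESeq2 called 0. WRKY40 had 3.75, 2.56 and 5.18 CPM in cue1 and 5.74, 7.47 and 4.94 CPM in wild type (log2 -0.66, SE 0.23, edgeR adjusted p = 0.198), and WRKY46 had 6.56, 3.47 and 8.19 CPM in cue1 and 13.4, 10.6 and 6.32 CPM in wild type (log2 -0.74, SE 0.34, edgeR adjusted p = 0.321). Both overlapped between groups, and the other 7 log2 fold changes lay between -0.39 and 0.15. Of the listed neighbours in the pathway, CML38 alone was called at 12 h (log2 -1.61, SE 0.23, edgeR adjusted p = 0.015).

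At 16 h, 7 of the 9 log2 fold changes in cue1 were positive, with a median of 0.50 against 0.0235 over all genes. Of all genes tested 3.34% were called higher and 3.42% lower, 4 members had an unadjusted p under 0.05, and DESeq2 called 1. WRKY75 had 1.77, 1.41 and 6.76 CPM in cue1 and 0.654, 0.508 and 1.1 CPM in wild type, without overlap but with 1 library far above the others (log2 2.12, SE 0.58, edgeR adjusted p = 0.0525). The log2 of WRKY75 was 1.05 without cue1 replicate 3, and WRKY75 was called without filtering on low counts (edgeR adjusted p = 0.0301) and with DESeq2 (0.00679). cue1 replicate 1 was the lowest of its group for every member but WRKY75. WRKY18, for instance, had 21.6, 32.2 and 46.7 CPM in cue1 and 21.9, 21.7 and 21.6 CPM in wild type. Without cue1 replicate 1, 4 members were called higher, WRKY18 (log2 0.88, edgeR adjusted p = 0.00697), WRKY46 (1.05, 0.0184), WRKY75 (2.43, 0.0325) and WRKY25 (0.91, 0.0352). The summed leaf markers were at 26300 to 36000 CPM in cue1 and 35330 to 41800 CPM in wild type, with 1 of 3 called lower. The summed flower markers were at 2.96 to 4.85 CPM in cue1 and 0.927 to 2.35 CPM in wild type, with 0 of 4 called and none at 0. Their part in these values was not tested.

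Around them, 2 of 6 VQ genes were higher in cue1 at 16 h, where 3.34% of all genes tested were called higher and 3.42% lower. They were SIB1 at 40.1 ± 11 CPM in cue1 and 19.8 ± 2.4 CPM in wild type (log2 1.04, SE 0.21) and MKS1 (log2 0.32, SE 0.08). Of 12 immune outputs tested 2 were higher, PR1, a marker of salicylic acid signalling, at 210.5 ± 172.6 CPM in cue1 and 57.4 ± 14.1 CPM in wild type and SARD1 (log2 1.08, SE 0.28). Exons on the other strand overlap a part of 0.184 of SARD1 and of 0.293 of MKS1. Of the camalexin and ethylene list 2 of 9 were lower, CYP79B3 (log2 -0.63, SE 0.12) and CYP79B2 (log2 -0.41, SE 0.11). The median log2 of that list was 0.19, against 0.0235 over all genes. The touch and wound list had 1 of 15 higher, SZF2 (log2 0.59, SE 0.14), and the senescence list 1 of 7 lower, CAT2 (log2 -1.32, SE 0.14). Of 47 other WRKY genes 3 were higher, WRKY54, WRKY51 and WRKY53, with log2 fold changes of 1.32, 1.32 and 0.63, and exons on the other strand overlap a part of 0.205 of WRKY53. The interaction of cue1 with day length called 0 members, with 3 at an unadjusted p under 0.05 and 0 by DESeq2, where 0.794% of all genes tested were called in either direction.

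**Figure D4:**
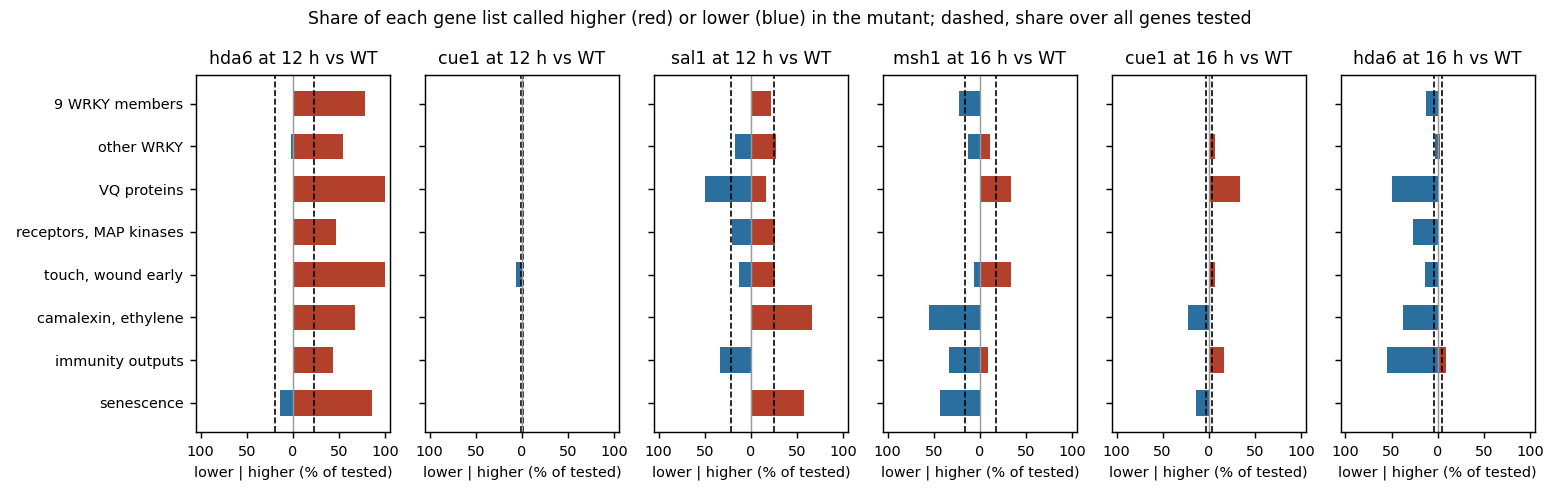
Share of the tested genes of each list called higher (red, to the right) or lower (blue, to the left) in each mutant (x axis, % of genes tested), with dashed lines for the shares over all genes tested. In hda6 at 12 h all genes of the VQ list and of the early touch and wound list were called higher, and in hda6 at 16 h no member was.

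Mutants of the same set were also compared with each other. These comparisons reuse the mutant libraries above. At 12 h, 8 of the 9 genes were higher in hda6 than in cue1, where 23.6% of all genes tested were called higher. WRKY40 differed 5.34-fold (20.4 ± 1.36 CPM in hda6, 3.83 ± 1.31 CPM in cue1, log2 2.42, SE 0.23, edgeR adjusted p = 0.000136). WRKY46 was called here, at 15.7 ± 3.21 CPM in hda6 and 6.07 ± 2.4 CPM in cue1 (log2 1.37, SE 0.34, edgeR adjusted p = 0.0102), and WRKY22 was the exception (log2 0.37, SE 0.23, edgeR adjusted p = 0.216). WRKY18 (log2 1.16, SE 0.32, edgeR adjusted p = 0.0157) fell short of the threshold without hda6 replicate 2 (0.0566).

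At 16 h, 4 of the 9 genes were lower in msh1 than in cue1 and none was higher, where 11.8% of all genes tested were called lower. WRKY46 was at 3.39 ± 0.621 CPM in msh1 and 12.3 ± 6.85 CPM in cue1 (log2 -1.85, SE 0.35, edgeR adjusted p = 0.00521), and WRKY60 at 3.6 ± 0.63 CPM in msh1 and 10.8 ± 1.99 CPM in cue1 (log2 -1.57, SE 0.26, edgeR adjusted p = 0.00232). WRKY18 was at 14.5 ± 1.39 CPM in msh1 and 33.5 ± 12.6 CPM in cue1 (log2 -1.20, SE 0.22, edgeR adjusted p = 0.00412). For these 3 genes the calls held without each of the 6 libraries. WRKY75, at 0.729 ± 0.152 CPM in msh1 and 3.31 ± 2.99 CPM in cue1 (log2 -2.18, SE 0.58, edgeR adjusted p = 0.0227), had a log2 of -1.12 without cue1 replicate 3 and fell short of the threshold without that library (0.0948) or without msh1 replicate 1 (0.0552), 2 (0.0726) or 3 (0.0749).

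Wild types of the same day length differed in some of these genes. At 12 h, 34% of all genes tested were called between the wild type of sal1 and that of hda6 and cue1. Among the members WRKY40 alone was called, at 9.75 ± 1.41 CPM in the wild type of sal1 and 6.05 ± 1.29 CPM in that of hda6 and cue1 (log2 0.68, SE 0.19, edgeR adjusted p = 0.0263). That call was lost without replicate 3 of the wild type of sal1 (0.102) or replicates 1 (0.0668) or 3 (0.0688) of the other wild type. At 16 h, 21.6% of all genes tested were called between the wild type of hda6 and that of msh1 and cue1. WRKY18 was at 10.4 ± 1.78 CPM in the wild type of hda6 and 21.7 ± 0.125 CPM in that of msh1 and cue1 (log2 -1.04, SE 0.13, edgeR adjusted p = 0.000213). WRKY22 was at 3.13 ± 0.521 CPM in the wild type of hda6 and 1.38 ± 0.526 CPM in that of msh1 and cue1 (log2 1.18, SE 0.31, edgeR adjusted p = 0.0186). The call of WRKY22 was lost without replicate 2 of the wild type of hda6 (0.0685) or replicates 1 (0.0617) or 2 (0.0657) of that of msh1 and cue1.

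Across the 30 libraries, with each set centred on its own mean, the log2 levels of the members varied together to different degrees. Of their 36 pairs 22 had a Pearson r over 0.5, with a median of 0.63, from -0.25 for WRKY22 with WRKY46 to 0.89 for WRKY18 with WRKY46. With each group centred instead, which removes the differences between genotypes, 12 pairs had an r over 0.5 and the median was 0.39. These values are descriptions over libraries that share set, depth and genotype.

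The genes whose level followed each member most closely were sought among 15681 or 15682 other genes that averaged 5 CPM or more, over the same 30 set-centred libraries. WRKY18 lay closest to AT3G47480 (r = 0.94), the pattern-response kinase gene FRK1 (0.94) and AT2G39210 (0.93), and WRKY46 to NUDT7 (0.95), BCS1 (0.92) and AT3G47480 (0.92). WRKY40 lay closest to AT3G55470 (0.92), PAD3 of camalexin synthesis (0.91) and AT3G22160, the gene named JAV1 above (0.90), and WRKY60 to APK2A (0.93), AAT1 (0.91) and DSK2 (0.91). WRKY33 had AT1G24140 (0.94), the syntaxin gene SYP122 (0.93) and FUT4 (0.92), and WRKY25 had AT5G41750 (0.93), NHL3 (0.92) and MAP3KA (0.90). WRKY75 had the senescence-associated SAG13 (0.90), AT5G38900 (0.89) and CHX17 (0.89). WRKY29 followed TCH4, a touch-induced cell wall gene (0.81), SZF1 (0.80) and PUP18 (0.80). WRKY22 had the lowest values, with AT1G78830 (0.77), AT5G61590 (0.72) and AT4G19410 (0.72).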

How the data were processed

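RNA from 30 leaf libraries was sequenced as paired reads of 150 bases. Trimming used Trim Galore 0.6.6 and cutadapt 2.8, and alignment used STAR 2.7.10a on TAIR10, per the submitters' processing notes. The authors' deposited tables give raw counts per gene and 5 lines that name no gene, which were left out of library sizes. The counting tool, its strand setting and the library kit were not given in the sources used here. All 32548 nuclear identifiers matched the TAIR10.1 annotation.

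Each set was fitted alone in R 4.3.3 with edgeR 4.0.16 (filterByExpr, minimum count 10, TMM factors, quasi-likelihood F test, Benjamini-Hochberg adjustment over all genes tested, called under 0.05). The SE is the absolute log2 fold change over the square root of F. Interactions and wild types were fitted over their own groups. Same-numbered replicates were taken as unpaired: 2 of 24 pairs had a residual correlation over 0.1 (range -0.356 to 0.137). Alternatives were size factors of DESeq2 type, DESeq2 1.42.0, no filter, a replicate block, other sets of libraries in the fit, and leaving out each library. Levels used CPM with TMM factors estimated over all 30 libraries. Likeness used log2 CPM with the same factors and a prior count of 2.

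The 9 members and the 7 other gene lists were chosen with earlier results of these data known. All members are named, with the 2 genes of smallest adjusted p among those called in each list (3 for other WRKY genes) and the 3 genes most like each member.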

Additional observations from a re-analysis of the deposited data

Results flagged for a closer look

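Under the same contrast, hda6 over the wild type of its set, 7 of the 9 WRKY genes had effects that differed between 16 h and 12 h by the interaction term of edgeR's quasi-likelihood test. On the log2 scale the hda6 effect at 16 h minus that at 12 h was -1.81 for WRKY40, -1.80 for WRKY33, -1.54 for WRKY25, -1.44 for WRKY60, -1.43 for WRKY46, -1.28 for WRKY29 and -1.23 for WRKY18. The effects at the separate day lengths were 1.76 at 12 h and -0.06 at 16 h for WRKY40 and 1.48 and -0.31 for WRKY33. WRKY46 was called in the interaction although its effect at 12 h (0.63) was not called and that at 16 h (-0.80) was lost in several refits. Day length and set of libraries cannot be told apart in this contrast.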

How the results depend on the processing

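Alternatives were size factors of DESeq2 type, DESeq2, no filter on low counts, a replicate block, all 30 libraries in a single model, only the 2 groups compared, and leaving out each library. The number of members called was within 1.5 times that of the fit per set except as follows. In sal1 at 12 h (2 in the fit per set) the replicate block called 4, WRKY25 and WRKY60 being added. In cue1 at 16 h (0) WRKY75 was called (1 member) without the filter, with the replicate block, with DESeq2 and with all 30 libraries. In hda6 at 16 h (1) none was called with size factors of DESeq2 type, with DESeq2 (0 members) or with all 30 libraries. Between wild types at 12 h (1) DESeq2 called 2. The replicate block also removed the call of WRKY18 in hda6 at 12 h (edgeR adjusted p = 0.0798). It removed that of WRKY40 between wild types at 12 h too (edgeR adjusted p = 0.0725). WRKY75 in msh1 then had a log2 of 0.0925 (edgeR adjusted p = 0.912) in place of -0.06. No further call changed in the mutant comparisons against wild type or in hda6 by day length. Elsewhere, members not called in the fit per set were not followed singly. Between wild types at 12 h the number called did not move, so another member was called there. The causes were not tested.

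Leaving out each library in turn, the number of members called was 0 to 0 in cue1 and 6 to 7 in hda6 at 12 h, 2 to 3 in sal1, 0 to 4 in cue1 and 1 to 3 in msh1 at 16 h, 0 to 2 in hda6 at 16 h, 7 to 8 for hda6 against cue1, 3 to 5 for msh1 against cue1, 0 to 0 for cue1 by day length, 5 to 8 for hda6 by day length, and 0 to 2 and 1 to 3 between wild types at 12 h and 16 h. No called member changed sign in these refits. Signs changed among uncalled log2 values near 0. In cue1 at 12 h these spanned -0.54 to 0.0541 for WRKY18, -0.18 to 0.20 for WRKY22, -0.29 to 0.22 for WRKY29, -0.0117 to 0.34 for WRKY33 and -0.65 to 0.0932 for WRKY75. In sal1 they spanned -0.0149 to 0.48 for WRKY18, -0.25 to 0.0301 for WRKY29 and -0.21 to 0.053 for WRKY33. At 16 h they spanned -0.65 to 0.16 for WRKY22 and -0.42 to 0.18 for WRKY29 in cue1, -0.37 to 0.012 for WRKY40 and -0.27 to 0.35 for WRKY75 in msh1 and -0.27 to 0.10 for WRKY40 in hda6.

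The number of all genes called moved by over 1.5 times in these cases. For cue1 at 12 h it was 381, against 168 with the replicate block, 1157 with DESeq2, 656 with all 30 libraries, 166 with only the 2 groups, and 32 to 303 without single libraries. For cue1 at 16 h it was 1404, against 921 with only the 2 groups and 563 to 1685 without single libraries. For hda6 at 16 h it was 1643, against 2743 with the replicate block and 930 to 2125 without single libraries. For cue1 by day length it was 168, against 904 with DESeq2 and 47 to 369 without single libraries. Without single libraries it was also as low as 2614 for msh1 against cue1 (4575) and 2656 between wild types at 16 h (4419). Depth limits WRKY75 at 16 h most, with 0 to 8 counts per library in the set of hda6.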
